A study of Prunus yedoensis with 90 samples.

Results

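Between February and March 2019 the apical buds of the Yoshino cherry 'Somei-yoshino' had more genes with a rise than with a fall. The comparison uses the 6 bud libraries of March against the 6 bud libraries of February, 12 of the 90 libraries in all, chosen by the tissue and date in their labels. Of 40161 genes tested, 3472 rose and 1216 fell by at least 1 on the log2(TPM + 1) scale, and the share of all transcripts held by the rising genes went from 2.80 to 4.26% in February to 9.45 to 16.5% in March. The share held by the falling genes went from 8.43 to 12.5% to 2.22 to 5.94%. The contrast of these same 12 libraries chose both lists, so the direction of both shifts was built in and only their size is described. TPM is a transcript level scaled for gene length and for the library total. The change was read in the same tree in both months and averaged over 3 sites with equal weight.

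A cherry bud formed in summer stops growing, becomes dormant in autumn, and needs a long period of cold before warmth can move it again. Once the chilling requirement is met the bud is held back mainly by low temperature, and in late winter it resumes growth, swells and opens. In buds of related fruit trees the release from dormancy involves the loss of growth-repressing regulators, the return of cell division and cell wall growth, and the maturing of flower organs.

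All trees are Cerasus × yedoensis 'Somei-yoshino', which is multiplied by grafts and so forms a single clone, and the labels name no treatment. At each of the sites Fukuoka (southern Japan), Tsukuba (central) and Hokkaido (Sapporo, in the north) 2 trees were sampled, called replicate 1 and replicate 2 here, and their ages were not given. Fukuoka buds were collected on 14 February and 13 March, 27 days apart. At Tsukuba the dates were 14 February and 6 March, 20 days apart, and at Hokkaido 7 February and 7 March, 28 days apart. The wider series runs from June 2018 to April 2019 and holds 66 bud and 24 leaf libraries. The labels call the tissue apical bud and do not say whether a bud was a flower bud or a leaf bud. The files pair no ID with a gene name, so bud markers could not be checked against the label and genes are given by ID. In whole buds, fewer cells of a type and less RNA per cell cannot be told apart.

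The libraries of the 2 trees of a site correlated at r = 0.953 to 0.98 across genes in these months. Each library sums to 1000000 TPM, and sequencing depth is unknown. Genes above 1 TPM numbered 36994 to 38708 in February and 38613 to 40376 in March, with Hokkaido replicate 2 lowest in March. The 100 most abundant genes of each library held 13.6 to 16.7% of TPM in February and 10.6 to 15.3% in March, where Hokkaido replicate 2 was highest. Library numbers fall into 2 series, 8200 for replicate 2 of Tsukuba and of Hokkaido and 7800 for the other 4 trees, and each tree has both months in the same series.

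The first comparison asked which transcripts moved in the buds of all sites together. With limma on all 66 bud libraries and Benjamini-Hochberg adjustment, 4688 genes had an adjusted p under 0.05 and a change of at least 1, which is 11.7% of those tested. The 3472 rising genes were 8.65% and the 1216 falling genes 3.03%, so 74.1% of the called genes rose. Their median change was 1.44 among the rising and -1.27 among the falling genes, against 0.00414 over all tested genes. Changes of at least 2 leaned further toward rises, with 705 rises and 135 falls, and at least 3 was reached by 156 and 34. At least 4 was reached by 26 rises and 8 falls and at least 5 by 8 and 4, so the lean did not keep growing with size. On the adjusted p alone the 2 directions were nearly even, with 12393 genes higher and 11854 lower in March, and a pseudocount of 5 in place of 1 left 1954 calls. With median scaling between libraries 70.7% of the called genes rose, and with quantile normalization 65.1%. The 2 trees of library series 8200 fitted alone gave 4 calls, against 3708 for the same trees with the spread taken from the Fukuoka trees, an alternative added after the data had been seen.

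The rising genes were mostly low in February. Averaged over the 6 trees, the median rising gene went from 2.53 TPM in February to 10.8 TPM in March, the median falling gene from 25.5 to 9.27 TPM, and the median tested gene from 9.10 to 9.38 TPM. The rising and falling genes were chosen by these same values, so the direction of their medians was built in. In all 6 February libraries 518 of the rising genes (14.9%) lay under 1 TPM, and 74 of these were listed at 0 in all 6. A further requirement of at least 1 TPM in every March library was met by 166 genes. The opposite switch, from at least 1 TPM in all 6 February libraries to under 1 TPM in all 6 March libraries, was made by 12 of the falling genes. Such switches were counted only within the rising and falling lists, which these same values chose. No share over all tested genes was computed. A gene under 1 TPM in every February library passed the filter only through other months, March among them. The counts of 166 and 12 therefore only describe the lists.

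Rises outnumbered falls in every class of abundance except the highest. Of 12744 tested genes with a mean under 5 TPM over the 12 libraries, 10.9% rose and 1.58% fell. From 5 to 50 TPM the shares were 7.34% and 3.20% of 23696 genes, and from 50 to 500 TPM they were 9.29% and 6.72% of 3616 genes. At 500 TPM and over, 6 of 105 genes (5.71%) rose and 14 (13.3%) fell. The scale understates the changes of low genes, which lie close to the added value of 1.

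Most of these genes moved the same way in every tree. Of the rising genes 3101 (89.3%) had a higher value in March in each of the 6 trees, against 22.4% of all tested genes, and of the falling genes 1129 (92.8%) had a lower value in each, against 20.6%. The 6 February and 6 March values did not overlap for 2056 rising genes (59.2%, with 10.1% of all tested genes so separated upward) and 818 falling genes (67.3%, with 9.61% downward). The trees that chose these genes are the same that are counted here, so the shares describe how even the change was.

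**Figure D1:**
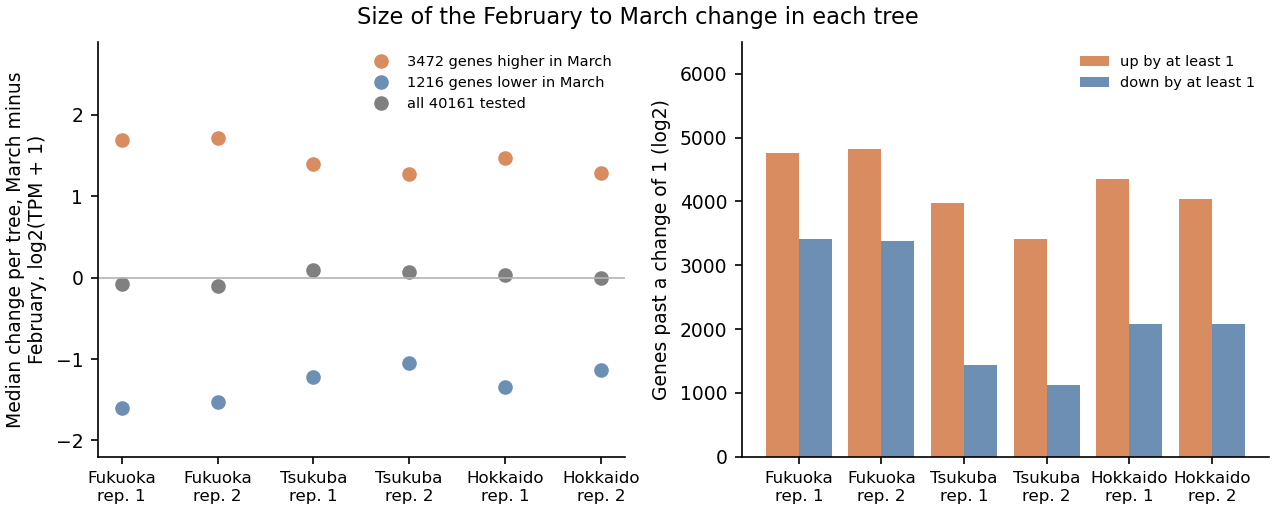
Left, the median change of each tree from February to March on the log2(TPM + 1) scale over the rising, falling and all tested genes, 1 point per tree and list; right, bars of the number of tested genes that went up or down by at least 1 in each tree. The Fukuoka trees have the largest medians in both directions (1.69 and 1.72 for the rising genes) and the most genes past 1 downward (3406 and 3379).

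The size of the change differed from tree to tree. The median rise of the rising genes was 1.69 and 1.72 in the Fukuoka trees, 1.40 and 1.28 in the Tsukuba trees and 1.48 and 1.29 in the Hokkaido trees. For the falling genes the medians were -1.60 and -1.52, -1.22 and -1.05, and -1.35 and -1.13, each time replicate 1 and then replicate 2. Fukuoka thus had the larger median in both directions, and replicate 2 of Tsukuba and of Hokkaido, the 2 trees of library series 8200, had smaller medians than the other tree of their site. Among the falling genes the absolute change was larger in replicate 1 than in replicate 2 for 72.5% at Tsukuba and 68.4% at Hokkaido, against 54.9% at Fukuoka. Among the rising genes the shares were 61.9%, 55.3% and 51.7%, and over all tested genes the shares were 56.4% at Tsukuba, 49.97% at Hokkaido and 50.2% at Fukuoka. Tree and library series cannot be told apart at Tsukuba and Hokkaido. The tree with most exceptions was Hokkaido replicate 2, where 92.7% of the rising genes had the higher value in March, against 98.2 to 99.3% in the other 5 trees.

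The 2 largest rises among genes of at least 5 TPM on average that went up in all 6 trees belonged to CYE_r3.1SPE2_g005700.1 and CYE_r3.1SPA0_g149980.1. CYE_r3.1SPE2_g005700.1 was at 0.568 and 0.513 TPM in February in the Fukuoka trees, 0.804 and 0.0466 in the Tsukuba trees and 2.08 and 0 in the Hokkaido trees. In March it was at 687 and 1309 TPM at Fukuoka, 249 and 24.4 at Tsukuba and 67.5 and 0.369 at Hokkaido. The March level was thus highest in the Fukuoka trees, while the Tsukuba and Hokkaido values overlapped. Hokkaido replicate 2 stayed within the February range. The means were 0.669 ± 0.759 TPM in February and 390 ± 518 in March (SD, n = 6), and the fitted change was 5.86 (SE 0.55, limma adjusted p = 6.02e-11).

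CYE_r3.1SPA0_g149980.1 had the same profile at a lower level. Its February values were 0.304 and 0.128 TPM at Fukuoka, 0.177 and 0 at Tsukuba and 2.70 and 0 at Hokkaido, and its March values were 473 and 967, 175 and 23.2, and 59.1 and 0.157. Again Hokkaido replicate 2 remained under 1 TPM, and the groups of 6 overlap through that tree. The change was 5.72 (SE 0.53, limma adjusted p = 5.87e-11). Its values match those of CYE_r3.1SPA2_g014520.1 across the 90 libraries at r = 1.00, so reads shared by near-identical copies may be split between these IDs. In the 2 trees of library series 8200 alone the changes of the 2 genes were 2.53 and 2.40, which did not pass when those trees were fitted alone (adjusted p = 0.538 and 0.566) and passed with the spread taken from the Fukuoka trees (8.94e-05 and 3.26e-05).

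The 2 largest falls in all 6 trees belonged to CYE_r3.1SPE0_g010980.1 and CYE_r3.1SPE0_g020130.1, whose values match each other at r = 0.994. CYE_r3.1SPE0_g010980.1 was at 83.9 and 177 TPM in February at Fukuoka, 253 and 175 at Tsukuba and 322 and 380.0 at Hokkaido. In March it was listed at 0 in both Fukuoka trees, and was at 0.883 and 1.89 TPM at Tsukuba and 8.71 and 20.3 at Hokkaido. Every March value lay under every February value. The means were 232 ± 108 and 5.30 ± 8.06 TPM (SD, n = 6), a change of -6.02 (SE 0.27, limma adjusted p = 7.96e-18).

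CYE_r3.1SPE0_g020130.1 went from 139.6 and 275 TPM at Fukuoka, 460.0 and 299 at Tsukuba and 439 and 442 at Hokkaido to 0 and 0, 1.42 and 3.67, and 16.5 and 21.8. Its change was -6.29 (SE 0.29, limma adjusted p = 9.75e-18). For the trees of library series 8200 the changes of both falling genes were -5.04 and -5.14, which did not pass with those trees alone (adjusted p = 0.225 and 0.209) and passed with the spread from Fukuoka (1.74e-05 and 5.24e-05). Both falling genes were winter transcripts. Their means were 0.190 and 0.285 TPM in October, 21.5 and 22.7 in November and 438 and 639 in January, before the lower February and March levels.

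**Figure D2:**
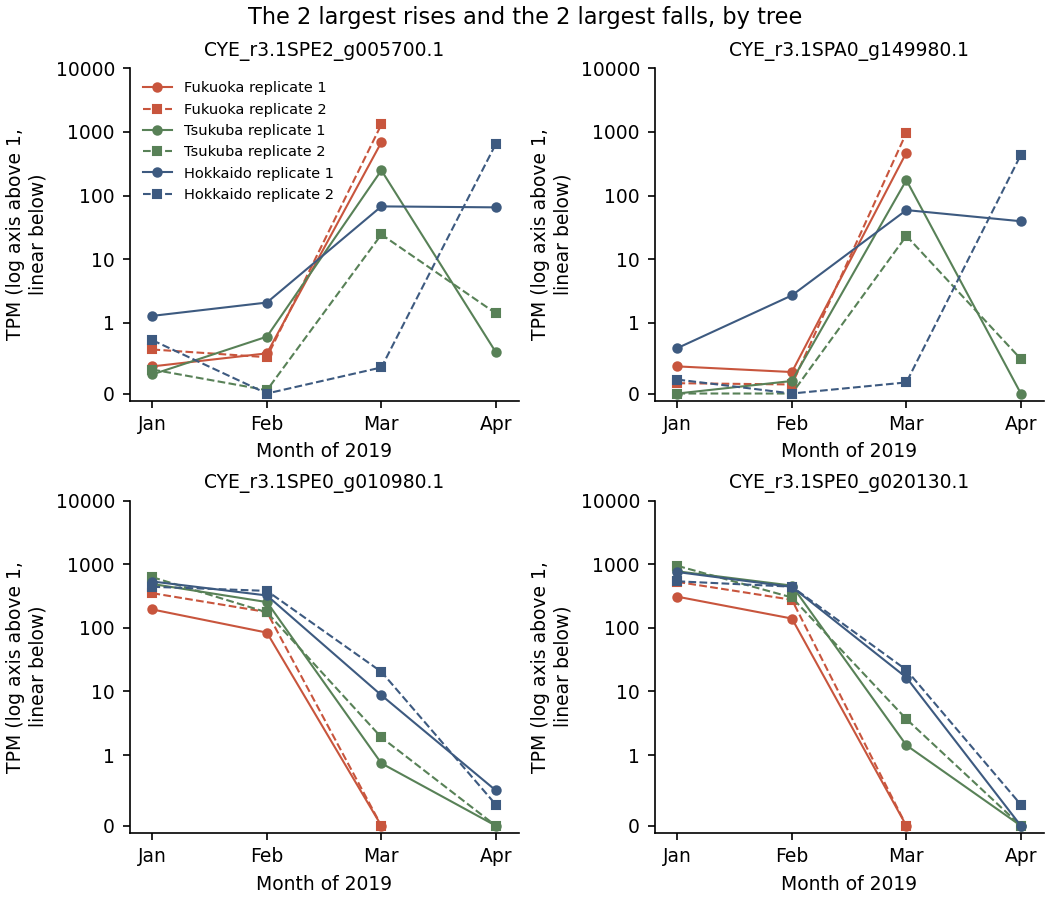
TPM from January to April of 4 genes in each of the 6 trees, on an axis that is logarithmic above 1 TPM and linear below. The genes have the largest rises and falls among those of at least 5 TPM on average that moved the same way in all 6 trees. Each gene has a panel and each tree a line coloured by site. Both falling genes drop in every tree, and the rising genes climb furthest in the Fukuoka trees, while Hokkaido replicate 2 is near 0 in March and high in April (648 and 436 TPM).

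The next comparison took each site by itself. At Fukuoka 4470 genes rose (11.1% of those tested) and 2959 fell (7.37%), 18.5% together. At Tsukuba 3079 rose (7.67%) and 939 fell (2.34%), 10.0% together. At Hokkaido 3591 rose (8.94%) and 1531 fell (3.81%), 12.8% together. Rising genes were the majority at each site, and the count of falling genes varied most, from 939 to 2959. Tsukuba had the fewest in both directions, and its 2 dates lie closest together.

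Scaling between libraries moved the balance, most at Tsukuba. There 76.6% of called genes rose, against 65.8% with median scaling and 61.7% with quantile normalization. The latter moved the median change of all genes at Tsukuba from 0.0807 to -0.0548. In the same order the share went from 70.1% to 66.5 and 60.8% at Hokkaido, and from 60.2% to 64.3 and 57.3% at Fukuoka. At Fukuoka the adjusted p alone gave 8528 genes higher and 11155 lower, the reverse of the balance under the minimum change.

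**Figure D3:**
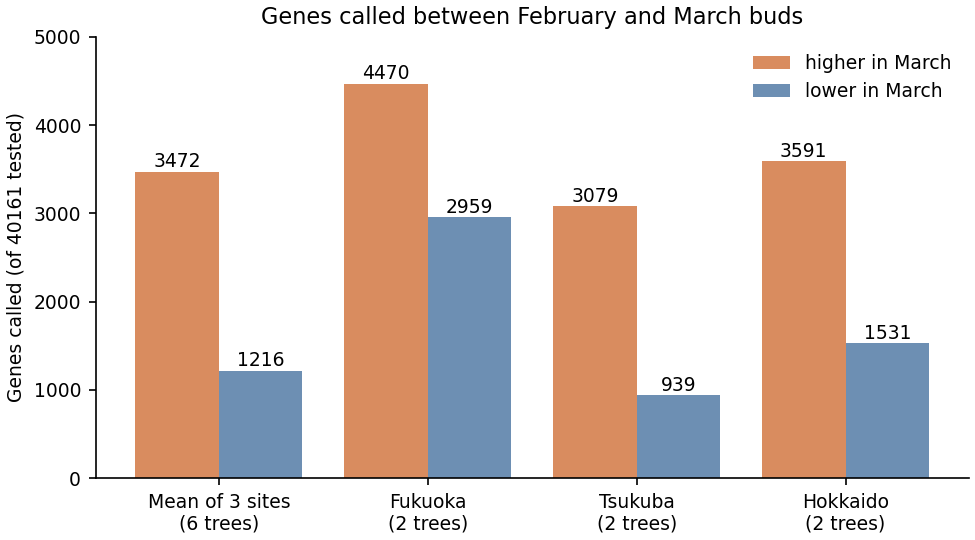
Number of genes called as higher and as lower in March, a bar each, between February and March for the mean of 3 sites and for each site. Bars start at 0, and the Fukuoka bars are the longest in both directions, 4470 rising and 2959 falling.

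The site lists overlapped widely. No library is shared between sites, but the filter and the spread of each gene were taken from all sites, so the lists are not independent. Of the genes that rose at Fukuoka 2355 also rose at Tsukuba, which is 52.7% of the Fukuoka and 76.5% of the Tsukuba list. Fukuoka and Hokkaido shared 2172 rising genes (48.6% and 60.5%), and Tsukuba and Hokkaido 1877 (61.0% and 52.3%). Falling genes were shared less evenly: Fukuoka and Tsukuba had 666 in common (22.5% and 70.9%), Fukuoka and Hokkaido 749 (25.3% and 48.9%), and Tsukuba and Hokkaido 513 (54.6% and 33.5%). In all 3 sites 1578 genes rose and 404 fell, out of 6314 that rose and 3905 that fell in at least 1 site. Only 55 genes rose in one site and fell in another. Across all 40161 genes, which are not independent, the changes correlated at r = 0.777 for Fukuoka with Tsukuba, 0.717 for Tsukuba with Hokkaido and 0.654 for Fukuoka with Hokkaido.

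Whether the change itself differed between sites was tested with an F test over the 3 site changes, calling genes whose site changes also spanned at least 1. This called 3259 genes, 8.11% of those tested. Among them were 725 of the 3472 rising genes (20.9%) and 272 of the 1216 falling genes (22.4%). Of the 725, the change was largest at Fukuoka, then Tsukuba, then Hokkaido in 382 (52.7%), the order from south to north, and the reverse order was seen in 88 (12.1%). Over all 3259 genes with a site difference, 27.6% had the first order and 35.7% the reverse. Of the 272, the fall was largest at Fukuoka, then Tsukuba, then Hokkaido in 131 (48.2%), against the same 35.7% of all 3259, and the reverse was seen in 36 (13.2%, against 27.6%). The median change of the 725 genes was 2.44 at Fukuoka, 1.38 at Tsukuba and 1.16 at Hokkaido, and that of the 272 was -2.09, -1.20 and -1.01. Both lists were chosen by the mean of these same 3 site changes, and Fukuoka had the most called genes. An order led by Fukuoka was thus favoured by the choice, and the shares and medians only describe the lists. Sites also differ in collection day and in the interval between collections, so site, date and interval cannot be told apart. Fitted to the 12 libraries alone the test called 483 genes, and leaving out 1 tree gave counts down to 1477, without Fukuoka replicate 2 (1768 without Fukuoka replicate 1).

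Taken pair by pair, Hokkaido and Fukuoka differed in the most genes. The change was higher at Hokkaido for 1573 genes (3.92%) and lower for 1275 (3.17%), 7.09% of those tested together. Tsukuba and Fukuoka differed in 1122 genes (2.79%), 682 with a higher (1.70%) and 440 with a lower change (1.10%) at Tsukuba. Hokkaido and Tsukuba differed in 632 (1.57%), 298 higher (0.742%) and 334 lower (0.832%) at Hokkaido. The direction of these splits depends on the scaling: the share higher was 60.8% for Tsukuba minus Fukuoka but 32.6% with median scaling and 42.2% with quantile normalization, 55.2% for Hokkaido minus Fukuoka but 44.5% and 46.0%, and 47.2% for Hokkaido minus Tsukuba but 62.5% and 58.2%. The counts also rest on single trees. Leaving out 1 tree gave 139 to 1327 genes for Tsukuba minus Fukuoka (139 without Tsukuba replicate 2, 156 without Fukuoka replicate 2, 302 and 499 without the others), and 1414 to 3047 for Hokkaido minus Fukuoka (1414 without Fukuoka replicate 2, 1578 without Hokkaido replicate 2, 1822 without Fukuoka replicate 1). For Hokkaido minus Tsukuba it gave 123 to 1064 (123 without Hokkaido replicate 2, 129 without Tsukuba replicate 1, 164 without Tsukuba replicate 2, 1064 without Hokkaido replicate 1).

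The 4 genes named above, with the largest changes among those moving the same way in every tree, all differed between sites. The change of CYE_r3.1SPE2_g005700.1 was 9.27 at Fukuoka, 5.86 at Tsukuba and 2.46 at Hokkaido (limma F test, adjusted p = 0.00262), and that of CYE_r3.1SPA0_g149980.1 was 9.13, 5.91 and 2.12 (adjusted p = 0.00151). For CYE_r3.1SPE0_g010980.1 the changes were -6.94, -6.50 and -4.61 (adjusted p = 0.0285), and for CYE_r3.1SPE0_g020130.1 they were -7.62, -6.79 and -4.46 (adjusted p = 0.00666). In all 4 the fitted change was largest at Fukuoka and smallest at Hokkaido. Between those sites the difference passed for each (limma adjusted p = 0.000455 to 0.0172). Neither step to or from Tsukuba passed for any of them. The limma adjusted p was 0.118 to 0.756 for Tsukuba minus Fukuoka and 0.0696 to 0.160 for Hokkaido minus Tsukuba.

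A larger difference between sites was seen for CYE_r3.1SPA2_g038830.1, which was listed at 0 in every February bud library and in every earlier bud and leaf library. In March it was at 2589.8 and 3783 TPM at Fukuoka, 274 and 8.24 at Tsukuba, and 31.1 and 0 at Hokkaido. In April it was listed at 0 in both Tsukuba trees but stood at 1002 and 5777 TPM at Hokkaido, and Fukuoka has no April collection. High values thus appeared in March in the south and in April in the north. The Hokkaido change minus the Fukuoka change was -9.11 (SE 1.26, limma adjusted p = 9.21e-06), and the Tsukuba change minus the Fukuoka change was -5.96 (SE 1.26, adjusted p = 0.00459). The SE pools the spread of all dates, and the dates at 0 add none, so it understates how far the trees differed in March. The change was 8.10 and 3.21 in the Tsukuba trees and 5.00 and 0 in the Hokkaido trees. With February listed at 0, no fold is given. Fitted to the 12 libraries alone neither difference passed (adjusted p = 0.0583 for Hokkaido and 0.171 for Tsukuba). The Tsukuba difference also did not pass without either Fukuoka tree or without Tsukuba replicate 2, where adjusted p rose to 0.241.

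CYE_r3.1SPE2_g032250.1 and CYE_r3.1SPE0_g107890.1 followed the same values at a lower level, matching CYE_r3.1SPA2_g038830.1 at r = 0.999 and 0.998 across the 90 libraries. CYE_r3.1SPE2_g032250.1 was at 1105 and 1638 TPM in March at Fukuoka and at 14.1 and 0 at Hokkaido, and its difference of change, Hokkaido minus Fukuoka, was -8.43 (SE 1.14, limma adjusted p = 6.49e-06). CYE_r3.1SPE0_g107890.1 was at 1127 and 1658 TPM at Fukuoka and at 175 and 5.08 at Tsukuba, and its difference, Tsukuba minus Fukuoka, was -5.39 (SE 1.15, adjusted p = 0.00494). With the 12 libraries alone neither passed (adjusted p = 0.0544 and 0.169), and the latter call was also lost without either Fukuoka tree, without Tsukuba replicate 2 and with a pseudocount of 0.1. The sources do not say how reads that such copies share were assigned, so the level of each single ID is uncertain.

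Among named genes that fell in all 6 trees the largest site difference was that of CYE_r3.1SPE1_g004300.1, together with its match CYE_r3.1SPE0_g033290.1 (r = 0.999). CYE_r3.1SPE1_g004300.1 stood at 2784 to 3667 TPM in the 6 January libraries. In February it was at 466 and 696 TPM at Fukuoka, 1169 and 927 at Tsukuba and 597 and 747 at Hokkaido, and in March at 0 and 0.660, 27.9 and 74.4, and 62.0 and 141. It was lower in March in every tree and was under 1 TPM at Fukuoka only. The change was 5.97 higher at Hokkaido than at Fukuoka (SE 0.91, limma adjusted p = 3.58e-05) and 4.31 higher at Tsukuba (SE 0.91, adjusted p = 0.00433), that is, the fall was smaller there. CYE_r3.1SPE0_g033290.1 gave 5.92 for Hokkaido minus Fukuoka (SE 0.94, adjusted p = 5.86e-05). Without Tsukuba replicate 2 the Tsukuba difference did not pass (adjusted p = 0.158), nor did it with the 12 libraries alone (0.0692).

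Between Hokkaido and Tsukuba, CYE_r3.1SPE8_g028430.1 and CYE_r3.1SPE0_g030210.1 rose more in the north. CYE_r3.1SPE8_g028430.1 was at 27.0 and 21.6 TPM in February at Fukuoka, 23.4 and 13.9 at Tsukuba and 1.40 and 0.670 at Hokkaido, and in March at 204 and 186, 56.0 and 33.8, and 72.4 and 52.4. Hokkaido started lowest in February and stood at about the Tsukuba level in March. The change was 3.75 higher at Hokkaido than at Tsukuba (SE 0.58, limma adjusted p = 0.000338). CYE_r3.1SPE0_g030210.1 went from 2.63 and 2.44 TPM to 7.84 and 5.61 at Tsukuba and from 0.734 and 0.421 to 41.1 and 49.4 at Hokkaido, a difference of 3.76 (SE 0.71, adjusted p = 0.00269) that did not pass without either Tsukuba tree, with a pseudocount of 0.1 (adjusted p = 0.0859) or with the 12 libraries alone (0.0979).

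Of the other named site differences, 3 rest on values at 0 in single libraries. CYE_r3.1SPE6_g013020.1 was at 1.18 and 1.50 TPM in February and 134 and 107 in March at Tsukuba, but went from 27.1 to 192 in Hokkaido replicate 1 and from 7.52 to a listed 0 in replicate 2. Its difference, Hokkaido minus Tsukuba, was -5.85 (SE 1.41, limma adjusted p = 0.0191), and it did not pass without any one of 5 trees, all but Hokkaido replicate 1. CYE_r3.1SPE2_g009630.1 was listed at 0 in February and at 15.1 TPM in March in Tsukuba replicate 1, was at 0.749 and 0.987 in replicate 2, and fell from 16.6 and 13.9 to 0.682 and 1.16 in the Hokkaido trees. The difference of -5.19 (SE 1.47, adjusted p = 0.0462) was lost in 9 of 15 alternatives.

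CYE_r3.1SPA0_g068940.1 went from 20.3 and 19.8 TPM to a listed 0 in both Fukuoka trees. At Tsukuba it went from a listed 0 to 14.6 TPM in replicate 1 and from 22.7 to 19.6 in replicate 2. The change was 6.28 higher at Tsukuba (SE 1.47, limma adjusted p = 0.00923), and it did not pass without Tsukuba replicate 1 or without either Fukuoka tree. In January this gene was at 20.8 to 29.5 TPM in all 6 trees, so the February 0 in Tsukuba replicate 1 and in Hokkaido replicate 2 stands apart from the month before. A listed 0 recurred for this ID at other dates, in 3 of 6 bud libraries in June, 2 in August and 1 in September. It was also listed at 0 in 11 of 24 leaf libraries, but in no bud library of July or of October to January.

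**Figure D4:**
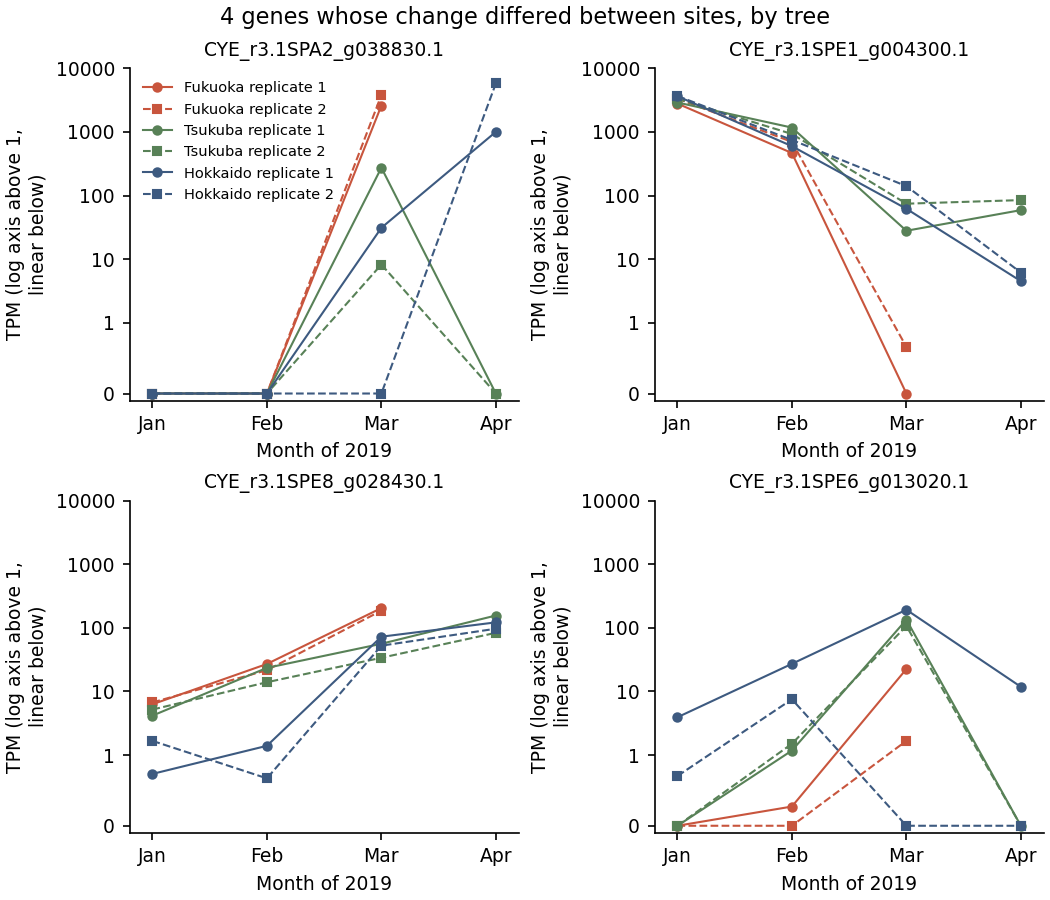
TPM from January to April of 4 of the genes whose change between February and March differed between sites, on an axis that is logarithmic above 1 TPM and linear below, with a panel per gene and a line per tree coloured by site. CYE_r3.1SPA2_g038830.1 is high at Fukuoka in March and at Hokkaido in April, and CYE_r3.1SPE1_g004300.1 is close to 0 in March in the Fukuoka trees.

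The same genes were followed through the rest of the year, in libraries of other months, which enter the filter and the spread of the fit but not the contrast that chose the genes. From October to January, buds of the 6 trees had 9326 called genes (23.2% of 40161), of which 3326 rose (8.28%) and 6000 fell (14.9%). Of the 3472 genes that rose from February to March, 2397 (69.0%) had fallen from October to January and 16 had risen. Of the 1216 falling genes, 795 (65.4%) had risen from October to January and 29 (2.38%) had fallen. The 2 comparisons share no library, and with median scaling and quantile normalization 68.6 and 64.6% of the rising and 64.9 and 63.0% of the falling genes had moved the other way in autumn. In 4 trees the library numbers change series between these months, and in replicate 2 of Tsukuba and of Hokkaido they do not. In those 2 trees 76.8 and 92.1% of the rising genes were lower in January than in October, against 78.0 and 93.1% in replicate 1 of the same sites, and 80.1 and 92.2% of the falling genes were higher, against 82.5 and 92.6%. Over all tested genes 40.4 and 56.0% were lower in the former 2 trees.

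The month of the lowest and the highest level tells the same course. Over the 8 months from June to January the rising genes were lowest in January in 2867 cases (82.6%, against 30.3% of all tested genes) and highest in June in 1779 (51.2%, against 21.3%). The falling genes were highest in January in 925 cases (76.1%, against 31.2%) and lowest in June in 503 (41.4%, against 15.8%). In March 1459 rising genes (42.0%) stood above every monthly mean of June to January, against 29.0% of all tested genes. Below every one stood 387 falling genes (31.8%), against 8.83%. March values helped to choose both lists, so higher shares were built in and only describe the March level.

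On the log2(TPM + 1) scale the median level of the rising genes was 1.27 in January, 1.93 in February and 3.87 in March at Fukuoka, 1.296, 1.74 and 3.31 at Tsukuba, and 1.15, 1.48 and 3.04 at Hokkaido. In June it had been 3.37, 3.27 and 3.53. The March level at Fukuoka thus lay above its June level, that of Tsukuba close to it and that of Hokkaido below it. The median level of the falling genes was 5.00, 4.49 and 2.83 in the same 3 months at Fukuoka, 4.88, 4.67 and 3.54 at Tsukuba, and 5.13, 4.76 and 3.45 at Hokkaido. In April the rising genes were at 3.67 at Tsukuba and 3.68 at Hokkaido, and the falling genes at 2.81 and 2.75.

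**Figure D5:**
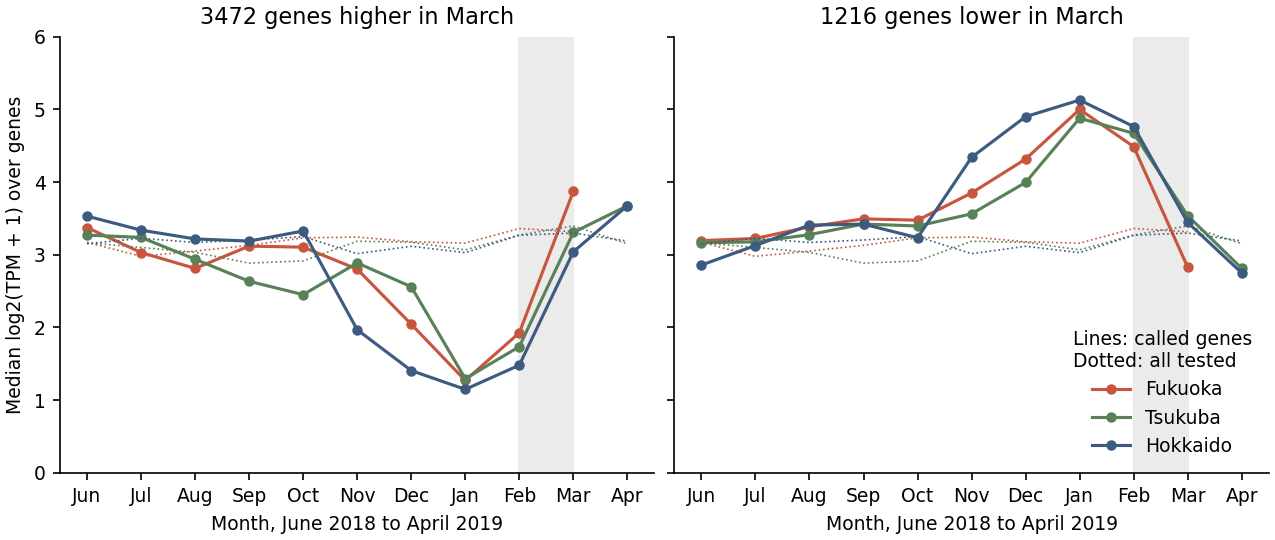
Median level over genes, on the log2(TPM + 1) scale, of the 3472 rising (left) and 1216 falling genes (right) in buds at each site from June 2018 to April 2019, with all 40161 tested genes as dotted lines and February to March shaded. The rising genes have their lowest median in January at each site (1.15 to 1.27 at Hokkaido and Fukuoka) and the falling genes their highest (4.88 to 5.13).

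Of the 2 largest rises named above, that of CYE_r3.1SPE2_g005700.1 was also followed into April. In Hokkaido replicate 2 its level had only gone from a listed 0 in February to 0.369 TPM in March. This gene was at 0.584 and 1.41 TPM in April at Tsukuba and at 65.2 and 648 at Hokkaido. Hokkaido replicate 2 thus reached in April a level close to that of Fukuoka replicate 1 in March. April offers a second look at the genes of the Fukuoka buds, in northern libraries outside the Fukuoka contrast (though inside the fit's filter and spread), a comparison added after the data had been seen. From March to April, 32 days, 1003 genes rose (2.50%) and 700 fell (1.74%) at Hokkaido, 4.24% together. Of the 4470 genes that rose at Fukuoka from February to March, 831 rose at Hokkaido from March to April (18.6% of the Fukuoka and 82.9% of the Hokkaido list) and 37 fell. Of the 2959 that fell at Fukuoka, 373 fell at Hokkaido in the later interval (12.6% and 53.3%). Most of the Hokkaido list of April rises was therefore in the Fukuoka list of March rises. Without Hokkaido replicate 2 the Hokkaido list held 1052 genes, 460 higher and 592 lower. The balance at Hokkaido also depends on the settings, with 1270 higher and 488 lower under median scaling but 2011 higher and 5569 lower on the adjusted p alone.

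At Tsukuba, 29 days from March to April, 1584 genes rose (3.94%) and 2920 fell (7.27%), 11.2% together. Of the Fukuoka rises 948 rose there again (21.2% and 59.8%) and 377 fell (8.43%, near the 7.27% of all tested genes). Of the Fukuoka falls 831 fell (28.1% and 28.5%) and 13 rose. The balance at Tsukuba reverses with the scaling, with 35.2% of called genes rising but 61.6% with median scaling and 54.7% with quantile normalization. Without Tsukuba replicate 2 it held 2751 genes.

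The last comparison placed these genes between bud and leaf, using the first 4 collections, from June to early September, which hold none of the February and March libraries. Of 39310 genes tested there, 4700 were higher in leaf (12.0%) and 9841 lower (25.0%). Among the 3115 rising genes tested in both, 2236 (71.8%) were lower in leaf than in bud and 189 (6.07%) higher, with a median difference of -1.67, against 26.0% lower, 9.64% higher and a median of -0.46 over the 37676 genes tested in both. Of 1101 falling genes, 287 (26.1%) were lower and 234 (21.3%) higher in leaf, with a median difference of -0.23. The transcripts that rose in late winter were thus mostly bud transcripts in summer too. RNA of leaf and bud was extracted by different protocols, and tissue cannot be told apart from extraction. Scaling shifted the balance of all genes, from 32.3% of called genes higher in leaf to 50.7% with median scaling and 51.1% with quantile normalization, under which 60.6 and 61.0% of the rising genes were lower in leaf, against 16.6 and 16.4% of all genes tested in both.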

How the data were processed

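RNA sequencing of buds and leaves was given as TPM values, which the authors deposited for 95076 gene IDs in 90 libraries. Per the submitters' processing notes, fastp 0.20.0, STAR 1.5.2 and StringTie 1.3.5 were used, but their roles and settings are not stated. Genome build and annotation: not given in the sources used here. TPM holds no depth, so no counting interval could be given, and the fits treat all libraries alike.

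limma 3.58.1 (R 4.3.3) was fitted to log2(TPM + 1) of genes with a mean of at least 1 TPM over the 66 bud libraries. It had 33 means, one per site and date, and a block for the tree, since a replicate number marks the same tree at every date. As a check, replicate 2 minus replicate 1 in February was correlated across genes with the same in March, which gave r = 0.0323 at Fukuoka, 0.27 at Tsukuba and 0.164 at Hokkaido. A gene was called at a Benjamini-Hochberg adjusted p under 0.05 and a change of at least 1, a 2-fold change of TPM + 1. Leaf and bud were compared on tree means over the first 4 collections, and IDs were said to match at r of at least 0.99. Nothing in the labels says how many buds or branches of a tree were pooled. The p-values measure how unevenly the 2 trees of a site moved from date to date. For a gene near 0 in most other months those dates add little spread, so its SE and p-value understate the spread between trees in March. February and March have 1 date per site, so the spread between days of a month was not measured. Fits were tested on simulated data. Other software was the R package data.table (version 1.17.8), Python 3.11.15 and matplotlib 3.10.9.

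The months compared and the lists of genes were chosen with earlier results of these data known. Genes named are the 2 largest rises and 2 largest falls among called genes of at least 5 TPM with the same sign in all 6 trees, and in each pair of sites the 2 largest differences each way where both trees of one site changed more than both of the other. No ID matched a gene in the lists of dormancy and flowering genes, so those lists gave no result. Alternatives covered the pseudocount, the filter, the scaling, the eBayes options, the block, the library series, the 12 libraries alone and the omission of each tree.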

Additional observations from a re-analysis of the deposited data

Results flagged for a closer look

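In groups of 6 trees, a gap test picked single libraries that lie far from the others, which chance alone does in about 1 in 20 groups. CYE_r3.1SPA0_g149980.1 was at 2.70 TPM in February in Hokkaido replicate 1, against at most 0.304 TPM in the other 5 trees. Hokkaido replicate 2 had the fewest genes above 1 TPM in March (38613) and the largest share of TPM in its 100 most abundant genes (15.3%). The part of that library in the results was not tested beyond leaving it out.

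The other picks are changes that differed between sites by a test of the difference itself, on the log2(TPM + 1) scale. The range of the change over the 3 sites was 6.80 for CYE_r3.1SPE2_g005700.1, 7.01 for CYE_r3.1SPA0_g149980.1, 2.33 for CYE_r3.1SPE0_g010980.1 and 3.16 for CYE_r3.1SPE0_g020130.1. For Tsukuba minus Fukuoka the differences were 6.28 for CYE_r3.1SPA0_g068940.1, 4.31 for CYE_r3.1SPE1_g004300.1, -5.39 for CYE_r3.1SPE0_g107890.1 and -5.96 for CYE_r3.1SPA2_g038830.1. For Hokkaido minus Fukuoka they were 5.97 for CYE_r3.1SPE1_g004300.1, 5.92 for CYE_r3.1SPE0_g033290.1, -8.43 for CYE_r3.1SPE2_g032250.1 and -9.11 for CYE_r3.1SPA2_g038830.1. For Hokkaido minus Tsukuba they were 3.76 for CYE_r3.1SPE0_g030210.1, 3.75 for CYE_r3.1SPE8_g028430.1, -5.19 for CYE_r3.1SPE2_g009630.1 and -5.85 for CYE_r3.1SPE6_g013020.1.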

How the results depend on the processing

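No named gene reversed its direction in any alternative run, and of the 12 named site differences 3 kept their call in all 16, those of CYE_r3.1SPE1_g004300.1 and CYE_r3.1SPE0_g033290.1 for Hokkaido minus Fukuoka and of CYE_r3.1SPE8_g028430.1 for Hokkaido minus Tsukuba. Leaving out 1 tree gave 4547 to 4919 genes for the mean of 3 sites, and without the replicate block the counts were 4686 for that mean, 7377, 3944 and 5073 for Fukuoka, Tsukuba and Hokkaido, 2932 for any site difference and 979, 2610 and 489 for the pairs Tsukuba minus Fukuoka, Hokkaido minus Fukuoka and Hokkaido minus Tsukuba, all within 1.5 times the counts with it. A pseudocount of 5 lowered every count by construction, to 1954 for the mean, 3572, 1639 and 2194 for the sites, 1655 for any site difference, 607, 1359 and 333 for the pairs, 4415 for January minus October and 7698 for leaf minus bud. The adjusted p alone raised them to 24247, 19683, 12057 and 16091, 6433, 2753, 5976 and 1176, 28925 and 31942 in the same order. With a mean of at least 5 TPM, fewer genes were tested, and 2663 were called at Tsukuba and 9551 for leaf minus bud. Fitted to the 12 libraries alone, any site difference fell to 483 genes, Tsukuba minus Fukuoka to 39 and Hokkaido minus Tsukuba to 2 (CYE_r3.1SPE8_g028430.1 and CYE_r3.1SPE0_g140110.1, the second named after its value was seen), with fewer residual degrees of freedom. The 4 trees of library series 7800 gave 5110 genes for the mean. The 2 trees of series 8200 gave 4 when fitted alone, CYE_r3.1SPE2_g026210.1, CYE_r3.1SPE6_g008420.1 and CYE_r3.1SPE8_g033050.1 upward and CYE_r3.1SPA1_g039860.1 downward, named after their values were seen. With the spread taken from the Fukuoka trees, an alternative added after the data had been seen, they gave 3708, and the Tsukuba and Hokkaido trees of series 7800 gave 4667. With 1 tree left out, counts ran from 1477 to 3668 for any site difference, 139 to 1327 for Tsukuba minus Fukuoka, 1414 to 3047 for Hokkaido minus Fukuoka and 123 to 1064 for Hokkaido minus Tsukuba, where the lone tree of a site is assumed to vary like the others. Why these counts moved was not tested further. TPM gives no depth, so the precision of low values is unknown.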

Other observations

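The IDs carry the letters SPA or SPE, which the sources used here do not explain. Of 20923 tested SPA genes 8.47% rose and 3.03% fell from February to March, and of 19238 tested SPE genes 8.84% rose and 3.03% fell, so both kinds moved in nearly equal shares. By the digit after these letters, IDs with 0 had 7.65% rising and 2.57% falling among 12483 tested, and those with 1 to 8 had 8.68 to 9.50% rising and 2.71 to 3.65% falling.

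In the table as deposited, 36619 of the 95076 IDs were listed at 0 in all 12 libraries of these months.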
